A study of Drosophila melanogaster with 6 samples.

Results

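The 73 genes whose symbol begins with mRpL or mRpS encode proteins of the mitochondrial ribosome, and they were followed in Drosophila S2 cells after RNA interference against Brr2. They were taken by symbol from the 17830 gene rows of the deposited table, without use of any measured value, and comprised 47 large subunit (mRpL) and 26 small subunit (mRpS) genes. S2 is an established line of embryonic origin with macrophage-like features. The control group consisted of 3 libraries titled shControl from cells with the wild-type genotype label, and the knockdown group of 3 libraries titled shBrr2; both groups carry the treatment label RNAi. The treatment protocol describes double-stranded RNA rather than a hairpin, and the sources used here do not name the RNA given to control cells. Brr2 is the helicase that separates the U4 and U6 RNAs when the spliceosome is activated. Sequencing libraries were made from total RNA from which ribosomal RNA had been removed. No label states whether the replicates were grown as separate cultures. The p-values therefore describe the spread among the 6 libraries, part of which may be technical. In bulk RNA, fewer cells and less RNA per cell cannot be told apart.

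Mitochondria translate the few proteins encoded by their own genome, all of them subunits of the oxidative phosphorylation complexes, on a ribosome of bacterial ancestry. Its RNA components come from the mitochondrial genome, whereas its proteins are made from nuclear genes, translated in the cytoplasm and imported. The large subunit joins amino acids and holds the tunnel through which the new chain leaves, and the small subunit binds the messenger RNA and reads it. The tally of members leaves out tko and bonsai, which encode the counterparts of bacterial S12 and S15 under other names, and their values are given separately. The symbols mRpS18A and mRpS30 are counted here with the small subunit, although in mammalian structures the homologous proteins sit in the large subunit.

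Libraries held 127654975 to 147620403 counts, and the lowest value of any member in any library was 104 counts. The Brr2 gene, listed as l(3)72Ab, stood at 158.1, 198.5 and 221.1 counts per 1e6 counts (CPM, scaled between libraries by the TMM method) in the control libraries and at 108.5, 94.0 and 99.8 CPM in the knockdown libraries. The groups did not overlap, and the level fell to 52.3% of control (log2 -0.93, SE 0.155, edgeR adjusted p = 0.0111). Transposon copies took 19.4% to 23.6% of the counts in control and 35.7% to 36.7% in knockdown libraries, a difference whose part in the results was not tested. Of 9 hemocyte markers, srp, Col4a1, vkg, eater and crq were above 1 CPM in every library, whereas Hml and NimC1 were at 1.29 CPM or lower. Pxn was called lower, from 9.04, 11.1 and 7.14 CPM to 0.843, 1.57 and 1.64 CPM. The marker He was called higher, from 0.329, 0.165 and 0.473 CPM to 3.89, 1.73 and 3.71 CPM. Muscle and fat body markers summed to at most 1.05 CPM. Of 3 neuron markers, elav was at 32, 31.1 and 25.3 CPM in control and 22.1, 25 and 22.6 CPM in knockdown libraries. The neuron markers nSyb and Syt1 were at 2.18 CPM or lower. The 9 hemocyte markers summed to 1950 to 2894 CPM in control and 976 to 1894 CPM in knockdown libraries, and of 3 germline markers aub rose from 25.7, 11.3 and 10.1 CPM to 90.7, 51 and 51 CPM, whereas vas and nos were under 1 CPM in every library. The part of these differences in the results was not tested, and values per gene do not separate spliced from unspliced RNA. Control replicate 3 stood apart from the other libraries. Genes annotated as rRNA held 0.0649% of its counts against 3.27% to 3.89% in the other 5 libraries. The RNAs of the mitochondrial ribosome itself were nearly missing from it: mt:lrRNA, the large subunit RNA, was at 2294, 1983 and 15.5 CPM in control replicates 1, 2 and 3 and at 1748, 1658 and 2230 CPM in the knockdown libraries, and mt:srRNA, the small subunit RNA, was at 475.3, 425.2 and 2.21 CPM and at 486.7, 453.9 and 527.5 CPM. This loss followed position on the mitochondrial genome. The 6 mRNA genes between bases 240 and 5524 stood in control replicate 3 at 108% to 152% of the mean of the other control libraries, whereas the 9 mRNA and rRNA genes between bases 5608 and 14916 stood at 0.491% to 2.49%. For the members, counts called, medians, sums and relations to length are therefore given with and without control replicate 3. The text on each called member says whether its call needed that library, which is not given for every other gene named.

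Transcript levels of the members spanned about an order of magnitude once divided by gene length. Values in this paragraph are mean CPM per kilobase of annotated exon in control libraries (± SD, n = 3). The highest large subunit genes were mRpL28 at 43.6 ± 7.87, mRpL22 at 41.3 ± 11.02 and mRpL23 at 39.2 ± 7.90, and the highest small subunit genes were mRpS22 at 40.8 ± 2.54, mRpS30 at 38.7 ± 5.26 and mRpS10 at 34.9 ± 11.6. These neighbours in the order did not differ beyond their spread. The lowest were mRpS24 at 4.06 ± 1.14 and mRpS33 at 4.30 ± 1.12, and in the large subunit mRpL50 at 7.06 ± 1.31 and mRpL54 at 8.71 ± 3.72. The median over large subunit genes was 17.7, 15.6 and 22.8 CPM per kilobase in control replicates 1, 2 and 3, and over small subunit genes it was 19.5, 17.9 and 27.1. Both medians were highest in control replicate 3. The median member, at 19.8 CPM per kilobase, lay above the median of 5.80 for the 10179 tested protein-coding genes.

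**Figure D1:**
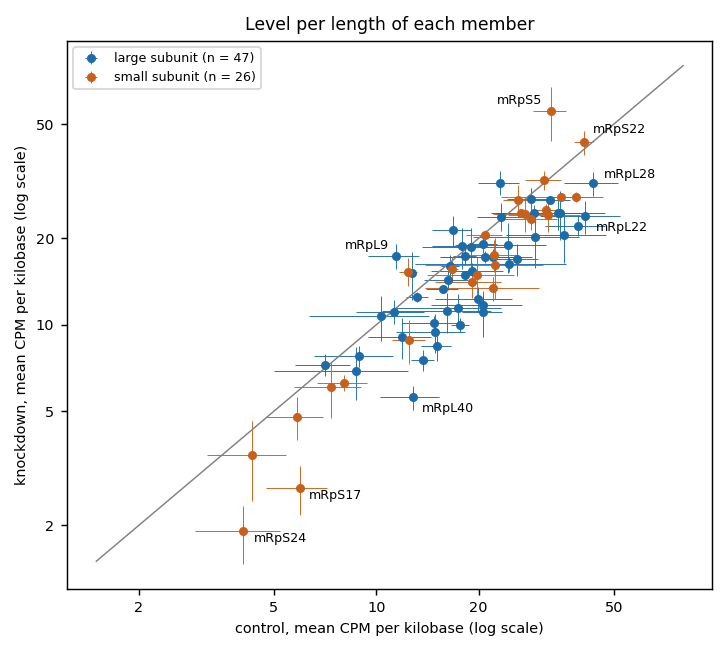
Mean level of each member in control (x axis) and knockdown libraries (y axis), in CPM per kilobase of exon on log scales; blue points are large and orange points small subunit genes, bars are ± SD over 3 libraries and the grey line marks equal levels. Most points lie below the line; mRpS17 and mRpS24 are both low and below it, and mRpS5 lies above it at 32.6 in control and 55.6 in knockdown libraries.

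Knockdown of Brr2 was accompanied by lower levels of 11 of the 73 members and a higher level of 1, all 73 of which were tested. The 9 large subunit genes that fell were mRpL40, mRpL16, mRpL41, mRpL19, mRpL48, mRpL23, mRpL47, mRpL22 and mRpL17. In the small subunit mRpS17 and mRpS24 fell while mRpS5 rose. Among all 11590 tested genes 17.7% passed the test, 9.63% lower and 8.05% higher, so the 15.1% of members called lower and the 1.37% called higher have to be read against these shares. With a replicate block for the shared replicate numbers, 17 members were called lower and 3 higher, and 14.3% and 11.3% of all genes. The log2 fold change was below 0 in 60 members and its median was -0.32, against -0.02 over all tested genes. Knockdown libraries lay wholly below the control libraries in 25 members, or 34.2%, and wholly above them in 5, or 6.85%; over all tested genes these shares were 21.7% and 20.1%. Without control replicate 3, the median was -0.12 against 0.03 over all tested genes, 54 members were below 0, and 7 (9.59%) were called lower and 0 higher, against 8.40% and 7.62% of all genes in that fit. Of those 7, 6 were among the 11, namely mRpL40, mRpL16, mRpL41, mRpL19, mRpL48 and mRpL23, and the other was mRpL28. The counts also fell without other single libraries, to 2 lower (2.74%) without control replicate 1 or knockdown replicate 1 and 3 (4.11%) without knockdown replicate 3, where 2.31%, 2.37% and 3.03% of all genes were called lower. They came to 7 (9.59%) without control replicate 2 or knockdown replicate 2, against 3.91% and 9.16% of all genes.

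**Figure D2:**
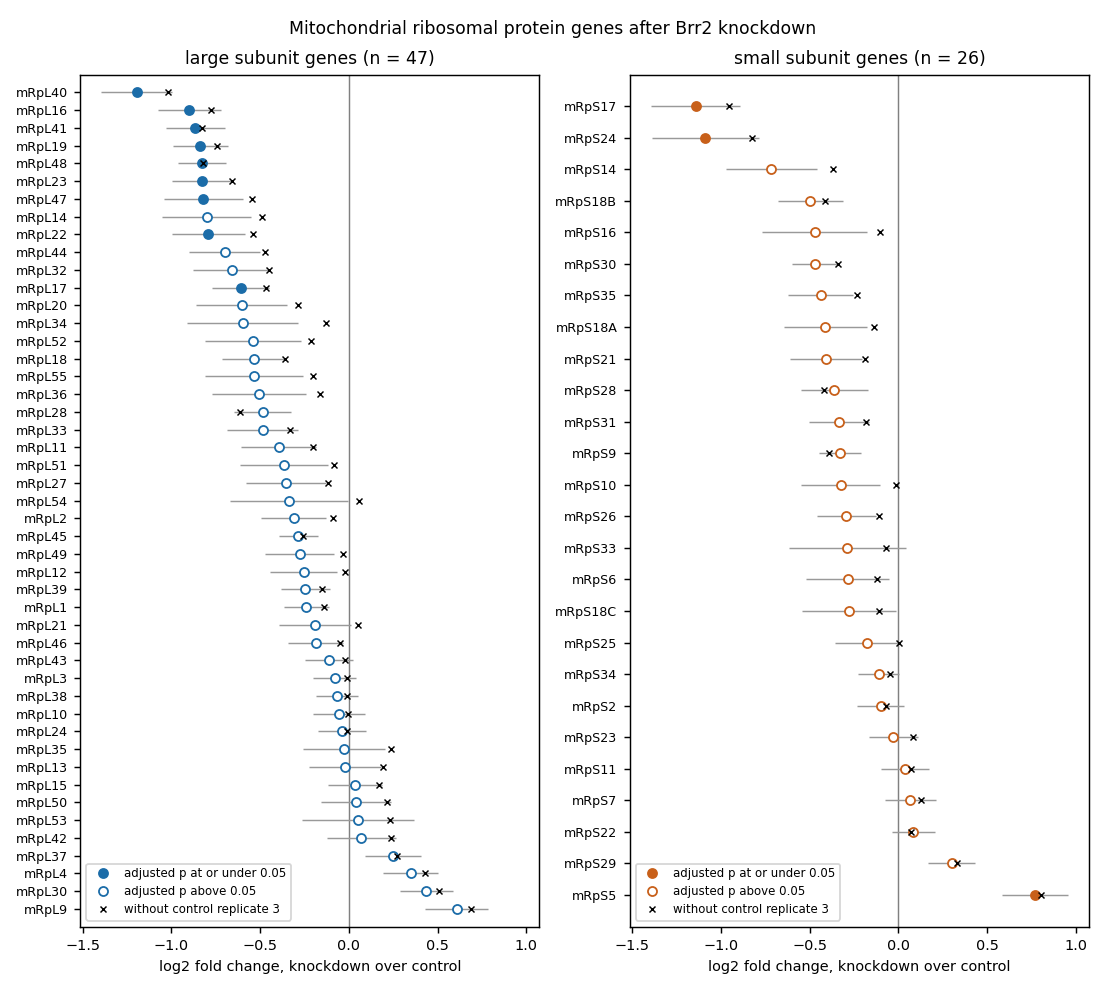
Log2 fold change of every member, knockdown over control (x axis), for large (left) and small subunit genes (right); circles are the edgeR estimates with bars of ± SE, filled where the adjusted p is at or under 0.05, and crosses are the estimates without control replicate 3. Circles lie below 0 for 60 of 73 members and crosses for 54; for many members the cross is nearer to 0 than the circle.

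mRpL40 had the lowest fold change of the 73. Its gene (FBgn0037892; BDGP6.54, chromosome 3R, 11407918 to 11408756, plus strand, 2 introns) encodes a protein without a bacterial counterpart, placed in the central protuberance of the large subunit in mammalian structures. It was at 7.77, 8.499 and 11.2 CPM in the control libraries and at 3.89, 4.43 and 3.67 CPM in the knockdown libraries. Each knockdown library lay below each control library, and the level fell to 43.6% of control (log2 -1.20, SE 0.199, edgeR adjusted p = 0.0111). mRpL48 (FBgn0031357; chromosome 2L, 1710462 to 1711465, plus strand, 2 introns), placed in the same protuberance, was at 13.2, 14.9 and 13.9 CPM in control and 7.51, 7.77 and 8.36 CPM in knockdown libraries. Its control values had little spread and did not single out replicate 3; the level fell to 56.4% of control (log2 -0.83, SE 0.136, adjusted p = 0.011). Both genes passed the test when any single library was left out, with adjusted p up to 0.0485 for mRpL40 and 0.0476 for mRpL48, and under every other setting tried. Other members placed in the protuberance did not pass, among them mRpL38 (log2 -0.07, adjusted p = 0.726), mRpL46 (-0.19, 0.429), mRpL18 (-0.54, 0.08) and mRpL27 (-0.35, 0.306).

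Of the other large subunit genes that fell, 4 encode counterparts of bacterial proteins beside the peptide tunnel, mRpL23, mRpL22, mRpL47 and mRpL17. mRpL23 (FBgn0035335; chromosome 3L, 2372844 to 2373704, minus strand) was at 27.1, 22.1 and 33.1 CPM in control and 14.1, 15.9 and 16.5 CPM in knockdown libraries (56.4% of control, adjusted p = 0.0206). mRpL22 (FBgn0030786; chromosome X, 16783933 to 16785092, plus strand), whose bacterial counterpart reaches into the tunnel, was at 35.0, 33.1 and 52.5 CPM in control and 19.9, 23.9 and 25.8 CPM in knockdown libraries (57.8%, adjusted p = 0.0399). mRpL47 (FBgn0014023; chromosome 3R, 9514822 to 9515908, minus strand), the counterpart of bacterial L29, was at 17.0, 14.1 and 25.0 CPM and at 10.7, 9.78 and 11.4 CPM (56.6%, adjusted p = 0.0451). In these 3 genes and in mRpL17 control replicate 3 was the highest library, yet the groups did not overlap. mRpL17 (FBgn0035122; chromosome 3L, 264779 to 265932, plus strand) was at 26.9, 24.7 and 33.2 CPM in control and 16.1, 18.7 and 20.8 CPM in knockdown libraries (65.6%, adjusted p = 0.0425). Other members with proteins placed near the tunnel exit did not pass. Among them mRpL32 came to -0.66 on the log2 scale (adjusted p = 0.0764) and mRpL45 to -0.28 (0.117), and mRpL24 was at 15.0, 13.4 and 14.8 CPM in control and 13.9, 12.8 and 15.4 CPM in knockdown libraries (log2 -0.04, adjusted p = 0.857). The call of mRpL23 needed control replicate 1 and knockdown replicates 1 and 3 (adjusted p of 0.0602 to 0.084 without one of them), that of mRpL47 was lost on leaving out any library except control replicate 2 (0.0662 to 0.135), and those of mRpL22 and mRpL17 on leaving out any 1 of the 6 (0.0569 to 0.14 and 0.0688 to 0.143). With upper quartile scaling or with no filter these last 3 were not called either (0.0614 to 0.0773), nor was mRpL47 with limma voom (0.0528) or a minimum mean of 5 CPM (0.0503).

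The other large subunit genes that fell were mRpL16, mRpL41 and mRpL19. mRpL16 (FBgn0023519; chromosome X, 1890256 to 1891482, plus strand), the counterpart of a bacterial protein beside the catalytic centre, was at 21.2, 19.9 and 25.6 CPM in control and 9.78, 14.1 and 11.9 CPM in knockdown libraries (53.7% of control, adjusted p = 0.018). mRpL41 (FBgn0034001; chromosome 2R, 15217024 to 15217617, minus strand) has no intron in the annotation, and stood at 8.59, 7.40 and 8.47 CPM in control and 4.70, 4.70 and 4.05 CPM in knockdown libraries (55.0%, adjusted p = 0.0158). Its control replicate 3 was no higher than replicate 1. mRpL19 (FBgn0037608; chromosome 3R, 8674109 to 8675196, plus strand), whose bacterial counterpart lies at the interface of the subunits, was at 15.3, 14.2 and 17.3 CPM and at 7.66, 8.89 and 9.65 CPM (56.0%, adjusted p = 0.0147). Leaving out control replicate 1 or knockdown replicate 1 ended the call of each of these 3, and leaving out knockdown replicate 3 that of mRpL16 and mRpL41, with adjusted p from 0.0511 to 0.0663.

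In the small subunit, mRpS17 and mRpS24 fell from low levels. mRpS17 (FBgn0034986; chromosome 2R, 24173665 to 24174441, minus strand), the counterpart of a bacterial protein that binds the small subunit RNA early in assembly, was at 3.89, 3.62 and 5.24 CPM in control and 1.49, 2.13 and 2.15 CPM in knockdown libraries, or 45.3% of control (adjusted p = 0.0246). mRpS24 (FBgn0039159; chromosome 3R, 24162829 to 24163545, minus strand), whose mammalian homologue is the counterpart of bacterial S3 at the entry of the messenger RNA channel, was at 2.12, 1.96 and 3.22 CPM and at 0.953, 1.04 and 1.44 CPM, or 47.1% of control (adjusted p = 0.049). Neither gene's groups overlapped. mRpS17 passed when knockdown replicate 2 was left out (adjusted p = 0.0452) and did not without any other single library (0.0533 to 0.0857). mRpS24 lost its call without any of the 6 (0.0711 to 0.159), and with upper quartile scaling, no filter or gene rows only (0.0535 to 0.0797). With limma voom mRpS24 was not called either, at an adjusted p that rounds to the threshold (0.05). Both genes were too low to be tested with a minimum mean of 5 CPM. Of the exon bases of mRpS24, 332 of 600 (55.3%) overlap TBC1d7 on the other strand, so the reads of these genes may not be separable; TBC1d7 itself did not pass (log2 0.36, adjusted p = 0.18). Outside the naming rule, bonsai fell from 12.9, 13.6 and 19.6 CPM to 6.95, 7.68 and 7.53 CPM, or 48.0% of control (log2 -1.06, SE 0.194, adjusted p = 0.0144), and lost its call without knockdown replicate 1 or 3 (0.0622 and 0.0538). tko, named for the bang-sensitive mutant technical knockout, was at 12.7, 13.7 and 20.4 CPM in control and 10.7, 10.7 and 12.9 CPM in knockdown libraries, with overlapping groups (log2 -0.45, adjusted p = 0.177).

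**Figure D3:**
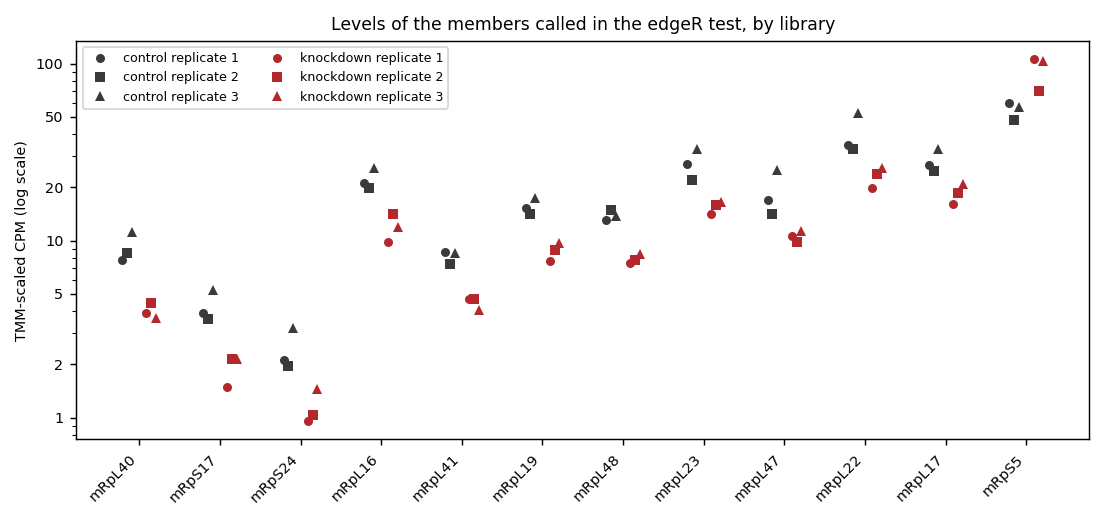
Levels of the 12 called members in each library, in TMM-scaled CPM on a log axis; dark symbols are control and red symbols knockdown libraries, with shape giving the replicate number. In each gene the groups do not overlap, and mRpS5 is the 1 gene with the knockdown libraries on top; control replicate 3 (dark triangle) is the highest control library in most genes, but not in mRpL41, mRpL48 or mRpS5.

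mRpS5 was the member that rose. The gene (FBgn0287187; chromosome 3L, 24537236 to 24543534, plus strand, 2 introns, the longer of 4793 bases) encodes the counterpart of bacterial S5, which lines the messenger RNA entry channel. It was at 59.7, 48.0 and 56.8 CPM in control and at 106.5, 70.4 and 103.5 CPM in knockdown libraries (log2 0.77, SE 0.186, adjusted p = 0.0329), and knockdown replicate 2 lay nearest to the control libraries. Leaving out any library except that one ended the call (adjusted p of 0.0576 to 0.117), as did scaling by total counts alone (log2 0.43, adjusted p = 0.15) and testing with no filter (0.0619). The other 4 members that lay wholly above the controls in the knockdown libraries did not pass the test. mRpL9, at 9.95, 7.27 and 9.96 CPM in control and 15.3, 12.6 and 13.5 CPM in knockdown libraries, was 152.3% of control (log2 0.61, adjusted p = 0.0555), and was called higher under 6 alternatives, which were upper quartile scaling (0.0322), DESeq2 (0.0144), limma voom (0.0496), a minimum mean of 5 CPM (0.0289), gene rows only (0.0379) and the replicate block (0.0282). mRpL30 (log2 0.44, adjusted p = 0.0859) was called higher with the block (0.0381), upper quartile scaling (0.0412) and a minimum mean of 5 CPM (0.0381). mRpL4, whose bacterial counterpart forms part of the tunnel wall, had 0.35 (adjusted p = 0.158), and mRpS29, the homologue of the GTP-binding protein DAP3, had 0.30 (adjusted p = 0.157).

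Several members lay just outside the threshold on the lower side. mRpS30 was at 74.4, 73.9 and 93.1 CPM in control and 55.5, 59.1 and 59.7 CPM in knockdown libraries (log2 -0.47, adjusted p = 0.0503). mRpL44, which has a fold of the RNase III family, was at 20.9, 17.6 and 28.7 CPM and at 12.4, 15.1 and 13.9 CPM (log2 -0.70, adjusted p = 0.0519). mRpL14, at 18.8, 19.0 and 32.1 CPM and at 11.7, 12.0 and 16.4 CPM, came to -0.80 on the log2 scale with an SE of 0.251 (adjusted p = 0.068), and control replicate 3 was far above the other controls. In the small subunit mRpS9 (log2 -0.33, adjusted p = 0.0948) and mRpS14 (log2 -0.72, adjusted p = 0.0956) followed. With the replicate block mRpS30 (adjusted p = 0.0347), mRpL44 (0.0456), mRpL14 (0.013), mRpL28 (0.0367), mRpL32 (0.0278) and mRpL52 (0.0376) were called lower in addition. Total counts only and DESeq2 also called mRpS30, mRpL44, mRpL14, mRpL28, mRpL32 and mRpS14 lower (0.0104 to 0.0431). Limma voom called mRpS30 (0.0496), and gene rows only called mRpL44 (0.0493). With upper quartile scaling, no filter or a minimum mean of 5 CPM these genes were not called. mRpL28 and mRpS9 were the 2 members with control replicate 3 as the lowest control library. mRpL28 was at 59.3, 52.6 and 41.1 CPM in control and 36.7, 39.7 and 32.8 CPM in knockdown libraries, and it passed without that library (log2 -0.61, adjusted p = 0.0322; with it -0.49 and 0.0803). At the other end, mRpS22 held 58.6, 52.4 and 53.1 CPM in control and 64.1, 55.9 and 53.9 CPM in knockdown libraries, a log2 fold change of 0.08 with an SE of 0.121.

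The large and small subunit genes were then compared. The median log2 fold change was -0.34 in 47 large and -0.31 in 26 small subunit genes, and 39 of the former and 21 of the latter were below 0. Without control replicate 3 the medians were -0.13 and -0.11. Called lower were 9 large subunit genes (19.1%) and 2 small subunit genes (7.69%), against 9.63% of all tested genes. Without control replicate 3, 7 large and 0 small subunit genes were called lower, against 8.40% of all genes. Whether these shares differ was not tested, because genes of 1 library set are not replicates. Moving mRpS18A and mRpS30 to the large subunit gave medians of -0.35 and -0.29 and left the calls at 9 and 2. Summed over genes, the large subunit held 784.2, 704.6 and 965.1 CPM in control and 654.0, 624.1 and 683.0 CPM in knockdown libraries. Each knockdown sum lay below each control sum, and the mean was 79.9% of control. The small subunit held 539.4, 494.0 and 623.7 CPM in control and 533.9, 477.8 and 538.0 CPM in knockdown libraries, with overlapping groups and a mean of 93.5% of control. With mRpS5 left out, an alternative chosen after seeing the data, the small subunit held 479.7, 446.0 and 566.8 CPM in control and 427.4, 407.5 and 434.5 CPM in knockdown libraries. These groups did not overlap, and the mean was 85.0% of control. Against control replicates 1 and 2 alone the means were 87.8% for the large subunit, 100% for the small subunit and 91.4% for the small subunit with mRpS5 left out. The ratio of the median level per kilobase of large over small subunit genes was 0.910, 0.869 and 0.840 in control and 0.866, 0.973 and 0.879 in knockdown libraries, which overlapped.

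The members shared a pattern across single libraries that the grouping into control and knockdown does not describe. Control replicate 3 was the highest control library for 61 of the 73 members (83.6%), against 39.6% of all tested genes. Its level exceeded the mean of the other control libraries by a median of 0.43 on the log2 scale, against 0.02 over all tested genes. Other protein-coding genes under 700 bases of exon also had an excess there, of 0.25, against 0.55 for members of that length. The median deviation of large subunit genes from their own mean over the 6 libraries was 0.07, -0.05 and 0.51 in control replicates 1, 2 and 3, and -0.16, -0.23 and -0.08 in the knockdown libraries, in log2 CPM. Small subunit genes had 0.07, -0.07 and 0.43, and -0.20, -0.17 and -0.01. The knockdown libraries were thus below control replicates 1 and 2 in the large subunit, while knockdown replicate 3 lay above control replicate 2 in the small subunit. Nuclear genes of oxidative phosphorylation, whose products work in the same organelle, had deviations of -0.01, -0.12 and 0.53 in control and -0.12, -0.21 and -0.05 in knockdown libraries. Their median log2 fold change was -0.28 over 71 tested genes. Of these, 11 (15.5%) were called lower and 1 (1.41%) higher, against 9.63% and 8.05% of all tested genes. Without control replicate 3, 8.40% and 7.62% of all genes were called lower and higher. In that fit these 71 genes had a median of -0.02, with 6 lower and 2 higher. In the main fit, with all 6 libraries, the 3 of lowest adjusted p were SdhD (37.4% of control), ND-B22 (47.5%) and ND-30 (30.2%). Cytoplasmic ribosomal protein genes had deviations of 0.32, -0.09 and -0.08 in control libraries. They had a median log2 fold change of -0.10 over 86 tested genes, of which 6 (6.98%) were called lower and 0 higher. Without control replicate 3, the median was -0.17 over 87 tested genes, with 4 lower and 1 higher.

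**Figure D4:**
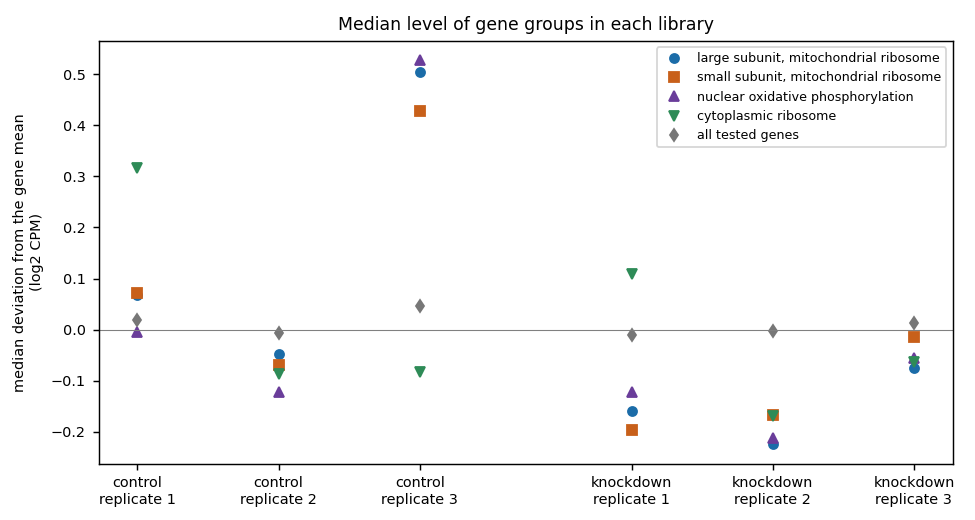
Median deviation of each gene group from the genes' own mean over the 6 libraries (y axis, log2 CPM), by library (x axis). Large and small subunit genes and nuclear oxidative phosphorylation genes reach 0.43 to 0.53 in control replicate 3, whereas cytoplasmic ribosomal protein genes are at -0.08 and all tested genes at 0.05 there.

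The members are short genes. Their median exon length was 783 bases, against 2018 bases over the tested protein-coding genes, and their annotated proteins ran from 64 residues (mRpL33) to 557 (mRpS30) with a median of 192. They had a median of 1 intron against 3, and 9 (12.3%) had none against 12.5%. Introns were small, with a median of 63 bases for the longest intron of a gene; the exceptions were mRpS9 at 11712 bases and mRpS5 at 4793. The members lay on all the large arms, 12 on 2L, 12 on 2R, 17 on 3L, 21 on 3R and 11 on X. The log2 fold change rose weakly with exon length over the 73 members (Spearman rho 0.28, a description across genes that share libraries), against 0.03 over protein-coding genes, and it showed almost no relation to the number of introns (rho -0.01). Shorter members were also those with the largest excess in control replicate 3 (rho -0.51, against -0.15 over protein-coding genes). In ranges of exon length, grouped after the data had been seen, members under 700 bases had a median log2 fold change of -0.41 (23 genes), those from 700 to under 1000 bases -0.27 (28 genes) and those from 1000 to under 1500 bases -0.28 (19 genes). Other protein-coding genes in these ranges had medians of -0.22, -0.02 and -0.01, and 13.5%, 8.85% and 10.9% of them were called lower, against 3 of 23, 5 of 28 and 3 of 19 members. Without control replicate 3 the medians of the members were -0.14, -0.05 and -0.15 and those of the other genes -0.11, 0.04 and 0.04, and rho was 0.12 over the members and -0.01 over protein-coding genes. The log2 excess in control replicate 3 was 0.55, 0.46 and 0.23 for members in these ranges. For other protein-coding genes it was 0.25, 0.13 and 0.09. The part of length in the members' change was not tested.

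**Figure D5:**
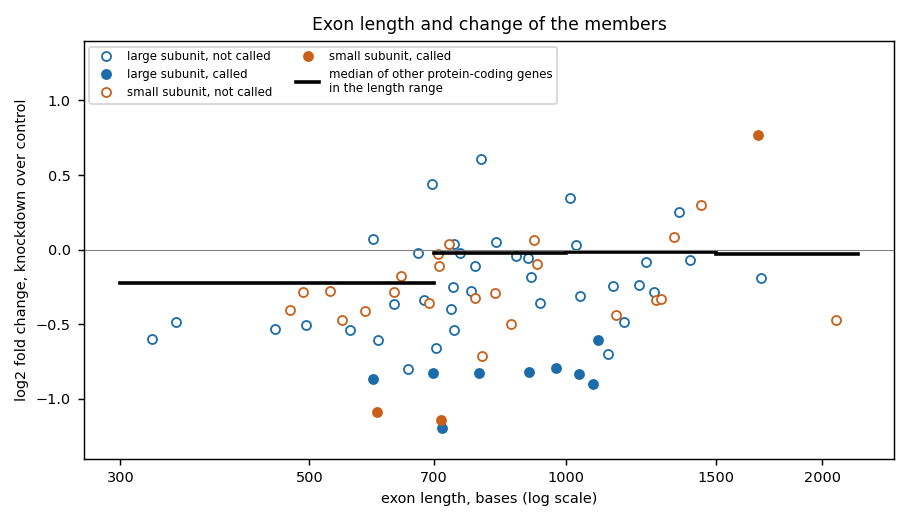
Log2 fold change of each member (y axis) against its exon length in bases (x axis, log scale); blue circles are large and orange circles small subunit genes, filled where called, and black bars are medians of other protein-coding genes in 4 ranges of length. Members lie mostly below the black bars in the ranges under 1500 bases, and the longest called member, mRpS5, is the 1 that rose.

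Many members share sequence with a neighbour on the other strand. Exons of 42 members (57.5%) overlap exons of a gene on the opposite strand, against 34.1% of protein-coding genes, mostly over less than 25% of the length; the 4 above that are mRpS24, mRpS21, mRpS14 and mRpS9. The sources used here do not say whether counting used strand, so these values may hold reads of the neighbour. Of the called members with such a neighbour, mRpL48 (20.8% of its exon bases, with frtz, and in part with a copy of the mdg3 transposon, at 1 count in every library), mRpL41, mRpL23, mRpL16 and mRpL47 had neighbours with log2 fold changes between -0.08 and 0.16 that did not pass the test. mRpL17 overlaps CG34263 over 23.6% of its length, and CG34263 fell from 0.655 ± 0.451 to 0.0618 ± 0.0171 CPM (adjusted p = 0.0158), a level far below that of mRpL17. Some neighbours had higher mean levels in control libraries than the member. These were arm at 277.5 CPM (mRpL16 at 22.25), frtz at 26.1 (mRpL48 at 13.97) and TBC1d7 at 6.59 (mRpS24 at 2.43). The neighbours of mRpL41, mRpL23 and mRpL47 were lower than the member. mRpL40, mRpL19, mRpL22, mRpS17 and mRpS5 overlap no annotated gene. On the same strand mRpL53 lies wholly within exons of another gene, and mRpL13 shares 35.2% of its length with CG10602. The values of mRpL53 and mRpL13 (log2 0.05 and -0.02) are therefore uncertain. The genes that overlap mRpL53 on either strand are AGO1 and CG33155.

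The rest of mitochondrial gene expression was followed in lists of related genes. Of 9 translation factor genes found in the table mIF2, the factor that brings the initiator tRNA, fell from 7.52, 8.15 and 7.93 CPM to 3.33, 4.17 and 3.56 CPM (46.9% of control, log2 -1.09, SE 0.17, adjusted p = 0.00967), and it passed without any single library. This 1 call is 11.1% of the 9 genes, against 9.63% lower and 8.05% higher among all tested genes. The other 8 did not pass. mEFTu1, the elongation factor that delivers aminoacyl-tRNA, was at 88.1, 90.6 and 112.8 CPM in control and 146.6, 119.6 and 126.2 CPM in knockdown libraries (log2 0.43, adjusted p = 0.0877, and 0.0415 without control replicate 3). Of 19 genes for mitochondrial aminoacyl-tRNA formation 2 (10.5%) fell and 0 rose, against 9.63% and 8.05% of all tested genes. The 2 that fell were GatA, part of the amidotransferase that makes glutaminyl-tRNA (55.9% of control, adjusted p = 0.0222), and PheRS-m, the phenylalanyl-tRNA ligase (62.6%, adjusted p = 0.0327). The call of each was lost on leaving out any 1 of control replicates 1 and 2 and knockdown replicates 1 and 3 (0.0568 to 0.111). Of 15 genes for synthesis and care of mitochondrial RNA 0 passed in edgeR, where 17.7% of all tested genes did. However, 3 had an unadjusted p under 0.05 and a log2 fold change above 0 (mTerf5, mTerf3 and SLIRP1, the last called without control replicate 3). Another 2 had such a p and a log2 fold change below 0 (TFAM and Suv3). TFAM, which packages and transcribes the mitochondrial genome, was at 53.8, 54.8 and 65.8 CPM in control and 39.4, 47.3 and 43.6 CPM in knockdown libraries (log2 -0.42, adjusted p = 0.07), and DESeq2 called it lower (0.0367). Of 6 nuclear regulators 1 (16.7%) was called lower and 0 higher, against 9.63% and 8.05% of all tested genes. This was Dref, the factor that binds the DNA replication-related element, which fell from 82.6, 77.6 and 83.8 CPM to 50.3, 55.6 and 51.7 CPM (adjusted p = 0.0123). Its call ended on leaving out control replicate 1, knockdown replicate 1 or knockdown replicate 3 (0.0501 to 0.0573). The regulator srl, the fly homologue of PGC-1, had a log2 fold change of 0.06.

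By the likeness of log2 CPM over the 6 libraries, the members closest to mRpL40 were mRpS30 (Pearson r = 0.966) and mRpL16 (0.961), and those closest to mRpS5 were mRpL4 (0.938) and mRpL9 (0.936), given as descriptions over libraries that include both groups. None of these pairs are neighbours in the genome. The 73 genes are scattered, and the closest pairs on a chromosome were mRpL3 and mRpS30, 23383 bases apart on X with log2 fold changes of -0.08 and -0.47, and mRpL24 and mRpL28, 28614 bases apart on 2L with -0.04 and -0.49.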

How the data were processed

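Per the submitters' processing notes, Trimmomatic, TopHat2 and build BDGP6 were used; these notes give no versions, and the sources used here name neither the counting tool nor whether it used strand. The deposited values are estimated counts per feature, whole numbers and unscaled; near-identical transposon copies hold near-equal values, so they may not count separate reads. The 6 libraries held 127654975 to 147620403 counts. All 23882 features entered edgeR 4.0.16 (R 4.3.3; filterByExpr, TMM, glmQLFit and glmQLFTest), with Benjamini-Hochberg adjustment over 14167 tested features and a threshold of 0.05; 11590 were genes. SE was taken as |log2 fold change| divided by sqrt(F). CPM uses TMM-scaled totals. Positions, lengths and overlaps come from the Ensembl release 115 annotation of BDGP6.54, a later release than the notes name, matched by identifier; 79 gene rows had no match. The fit was tested on simulated data. Alternatives used DESeq2 1.42.0, limma 3.58.1 (voom), other scalings and filters, a fit with a replicate block and fits that omit 1 library. Members, lists and the rule for named genes (called members, the nearest uncalled ones, the highest and lowest per kilobase, tko, bonsai and the lowest adjusted p of each related list) were chosen with earlier results of these data known; mRpL3, mRpL4, mRpL13, mRpL18, mRpL24, mRpL27, mRpL28, mRpL30, mRpL32, mRpL38, mRpL45, mRpL46, mRpL52, mRpL53, mRpS21, mRpS29 and genes that overlap members were named after their values were seen. Replicate numbers are shared by the groups. Deviations from group means correlated at 0.16 to 0.317 between same-numbered libraries of different groups and at -0.229 to 0.0506 otherwise. Deviations within a group sum to 0, so these correlations are not independent. The numbers may pair the libraries, but no label states it. The main fit and the fits that omit 1 library have no block, and blocked values are given where they change a call. Replicates of a group differed by more than sampling noise (117.1 to 1566 for chi-square over its degrees of freedom).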

Additional observations from a re-analysis of the deposited data

How the results depend on the processing

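The Brr2 gene kept its direction and call under all 14 alternatives. The 11 members called lower and 1 called higher became 26 and 0 when scaled by total counts alone (35.6% lower, against 24.1% of all genes), 7 and 3 with upper quartile scaling (9.59% against 6.98%), 18 and 2 with DESeq2 (24.7% against 15.2%), 7 and 0 with no filter (9.59% against 4.09%) and 17 and 3 with a replicate block (23.3% against 14.3%). Of all genes 4.94%, 10.6%, 12.4%, 3.70% and 11.3% were called higher in these fits. With a mean of at least 5 CPM, 8 of 67 members (11.9%) were called lower, below the 13.3% of all genes, and 3 higher. Limma voom called 10 lower (13.7% against 9.98%) and 2 higher. Gene rows only gave 11 lower (15.1% against 9.19%) and 2 higher. When single libraries were left out, 2 to 7 members were called lower and 0 to 1 higher. The following subunit counts take both directions together. Large subunit calls (9, all lower) became 17 with total counts only (all lower), 15 with DESeq2 (14 lower) and 16 with the replicate block (14 lower), and 2 to 7 without single libraries (all lower). Small subunit calls (3, of which 2 lower) became 9 with total counts only (all lower), 5 with DESeq2 (4 lower) and 1 with no filter (lower). They became 1 with the minimum of 5 CPM, which left 67 members to test. That call was mRpS5, which rose, where 12.1% of all genes were called higher. Without single libraries they became 0 to 2. Called genes numbered 2049, and 3361 with total counts only, 3202 with DESeq2, 1258 with no filter, 2966 with the block and 629 to 1928 without single libraries. Total counts only moved the median of all genes to -0.35 (log2) and the subunit medians to -0.71 and -0.65, and upper quartile scaling moved that of all genes to 0.10. Leaving out single libraries gave medians of -0.45 to -0.13 for large and -0.43 to -0.11 for small subunit genes. The cause of these shifts was not tested. Knockdown over control ratios of the summed levels (0.799 and 0.935) became 0.878 and 1 without control replicate 3, and that of the small subunit 0.85 with mRpS5 left out; both were chosen after seeing the data. Per kilobase or without the 3 genes highest per kilobase, a set that does not include mRpS5, the ratios moved by less than the spread between libraries. By length of the longest transcript, 10 of the 10 highest genes per kilobase were the same. Signs changed only for uncalled members among those named: with total counts only mRpL50 (-0.32), mRpS22 (-0.25), mRpL53 (-0.30) and mRpS29 (-0.0436); with upper quartile scaling mRpL24 (0.08), mRpL13 (0.0971), mRpL3 (0.0392) and mRpL38 (0.0537); with the minimum of 5 CPM mRpL24 (0.0481), mRpL13 (0.0655), mRpL3 (0.00599) and mRpL38 (0.0207); with gene rows only mRpL13 (0.0139); and without single libraries mRpL50 (range -0.033 to 0.213), mRpL24 (-0.116 to 0.00788), mRpL13 (-0.11 to 0.192), mRpL53 (-0.235 to 0.23) and mRpL54 (-0.578 to 0.0576). No call of the 12 members was lost under the replicate block. The lowest value of a member was 104 counts, and the effect of depth on the calls was not tested.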
